A study of Mus musculus and Homo sapiens with 30 samples.

Results

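SkBr3 cells kept for 16 h in lean adipocyte secretome were compared with SkBr3 cells kept in standard growth medium, over 8 of the 30 libraries of the series (4 libraries in each group). SkBr3 is an established human breast cancer cell line of luminal type that carries an amplified ERBB2 (HER2) gene. The members were chosen by the cell line and treatment in the sample titles. The control cells received DMEM with 10% FBS. The lean group received a mixture of which 50% was secretome of lean inguinal adipocytes, that is, medium conditioned by fat cells of the inguinal depot, and 50% was the same growth medium. All cells had grown for 36 h before treatment. A further 4 libraries, from cells given the obese inguinal adipocyte secretome in the same mixture, entered the statistical fit and are given as side values. The labels state neither the species of the adipocytes nor whether the replicates came from separate cultures or separate secretome preparations, so the p-values measure the spread between these libraries, which may be technical. The control medium held no conditioned medium, so products of the adipocytes and the dilution or use of medium components cannot be told apart in this comparison.

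Adipocytes release fatty acids, oxidised lipids (oxylipins), hormones and other proteins into their surroundings, and in the breast tumour cells lie next to them. The title of the series names an oxylipin of lean breast adipocytes and ferroptosis, a form of cell death in which iron drives the oxidation of membrane phospholipids. Cells limit ferroptosis by importing cystine, making glutathione and reducing lipid peroxides with GPX4, and oxidised lipids are known to activate stress-responsive transcription through the factor NRF2. The deposited human table lists genes by Ensembl ID and does not pair them with symbols, and the name tables used here matched 0 of its 61552 IDs. The genes of these pathways, and the markers that define SkBr3 or other cell types, were therefore not identified among the IDs. The label of the cell line was not checked against such markers. The IDs tested and described below may include genes of these pathways. The response is described over all expressed genes, and by 2 IDs that rose and 2 that fell.

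Nearly as many genes were called different between the lean secretome and control medium as were left uncalled. Of 14874 genes tested, 7254 (48.8%) differed from control at an adjusted p under 0.05 in edgeR's quasi-likelihood test, with increases in 3521 (23.7% of the tested genes) and decreases in 3733 (25.1%). Most of these changes were small. The median gene called higher rose 1.29-fold and the median gene called lower fell 1.23-fold, and 5137 of the 7254 (70.8%) had an absolute log2 fold change under 0.5. The larger changes were mostly increases. A log2 fold change of 1 or more in either direction, which is a fold of 2, was reached by 583 called genes (3.92% of those tested): 422 rose (2.84%) and 161 fell (1.08%). At a log2 change of at least 2 there were 60 higher and 10 lower, and at 3 or more there were 15 higher and 1 lower. The median log2 fold change of all tested genes was 0.00152.

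**Figure D1:**
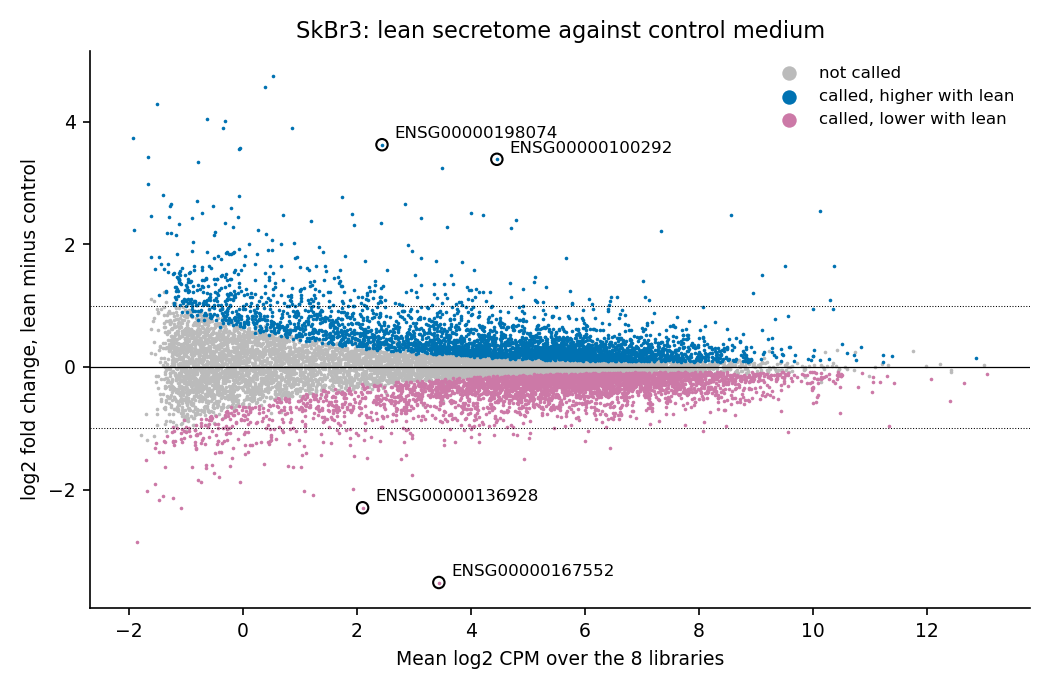
Each point is 1 of the 14874 tested genes, by its mean log2 CPM over the 8 libraries (x axis) and its log2 fold change of lean over control (y axis). Genes called at an adjusted p under 0.05 are in blue (3521 higher) or pink (3733 lower), the others in grey, dotted lines mark a change of 1, and circles mark the 4 IDs described in the text; points beyond a change of 2 lie mainly on the upper side.

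The libraries of both groups were of similar depth, and the groups did not overlap in a large share of genes. Totals ran from 18479433 to 26114542 counts in the control libraries and from 19183007 to 27208774 in the lean libraries, and 5.88% to 6.21% of each library fell on its 10 most abundant genes. All 4 lean libraries lay above or below all 4 control libraries in 6193 tested genes (41.6%, beside 48.8% called), above in 2911 and below in 3282. Of the 7254 called genes, 5799 (79.9%) had groups that did not overlap. Of the 583 with a change of at least 1, 500 did not overlap, and in 576 all 4 lean libraries lay on the called side of the control mean. The called genes and their direction were taken from these same libraries, so the counts among them are a description and no test.

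ENSG00000198074 showed the largest increase among called genes whose mean level was 2 or more in log2 CPM and whose groups did not overlap. CPM is a gene's count scaled to the library's total over the tested genes, adjusted by a normalization factor given below. The level of ENSG00000198074 was 1.96, 1.79, 1.54 and 0.866 CPM in control replicates 1 to 4 and 21.3, 20.8, 21.3 and 13.4 CPM in lean replicates 1 to 4. The lowest lean library thus lay far above the highest control library. The means were 1.54 ± 0.480 CPM (SD, n = 4) in control medium and 19.2 ± 3.86 CPM with the lean secretome, a ratio of 12.5. The log2 fold change in edgeR was 3.63 (SE 0.36, adjusted p = 1.77e-05). The counts behind these values ran from 19 to 538 per library, so the control level rested on few reads. Among called genes of any level, the largest log2 fold change was 4.75, in a gene with a mean log2 CPM of 0.522.

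ENSG00000100292 showed the next largest increase under the same limits of level and overlap, from a level that was better measured. It was at 7.05, 7.49, 5.92 and 6.84 CPM in the 4 control libraries and at 80.4, 76.9, 47.3 and 82.3 CPM in the 4 lean libraries. Lean replicate 3 was the lowest of the lean libraries and still several times above every control. The means were 6.83 ± 0.660 CPM (SD, n = 4) and 71.7 ± 16.4 CPM, a ratio of 10.5, with a log2 fold change of 3.39 (SE 0.29, edgeR adjusted p = 9.2e-06).

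ENSG00000167552 showed the largest decrease. It was at 35.9, 37.2, 34.6 and 37.3 CPM in the control libraries and at 3.64, 2.39, 3.98 and 2.86 CPM in the lean libraries. The means were 36.3 ± 1.28 CPM (SD, n = 4) and 3.22 ± 0.721 CPM, and the control mean was 11.3 times the lean mean. On the log2 scale the SD was 0.0514 in the control libraries and 0.324 in the lean libraries. The log2 fold change was -3.52 (SE 0.67, edgeR adjusted p = 0.00179). Its standard error was the widest of the 4 IDs, although its log2 SDs within control and within lean were the smallest of the 4. The fit also used the obese libraries, which stood at 28.6, 4.70, 35.2 and 5.93 CPM. Obese replicates 1 and 3 were thus near the control level and replicates 2 and 4 near the lean level, and a mean of the obese group describes none of them. Fitted on the 8 control and lean libraries alone, the log2 fold change of ENSG00000167552 was -3.51 (SE 0.10, edgeR adjusted p = 5.87e-13).

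ENSG00000136928 showed the next largest decrease under the limits of level and overlap given above. It was at 8.40, 8.46, 11.1 and 9.44 CPM in the control libraries and at 1.74, 1.74, 2.84 and 1.45 CPM in the lean libraries, and the groups did not overlap. The means were 9.36 ± 1.27 CPM (SD, n = 4) and 1.94 ± 0.614 CPM, so that the control mean was 4.82 times the lean mean. The log2 fold change was -2.30 (SE 0.23, edgeR adjusted p = 1.55e-06). Between 40 and 218 reads per library stood behind these values.

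**Figure D2:**
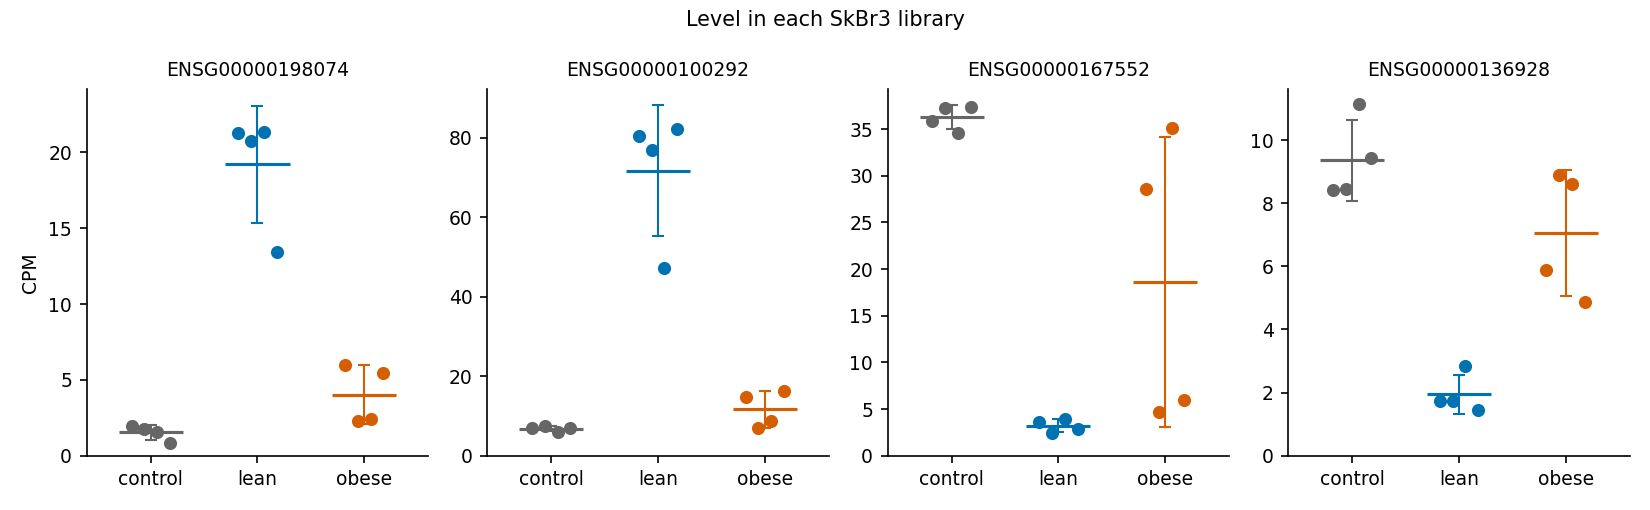
Level in CPM (y axis, from 0, a scale of its own for each ID) of 4 gene IDs in each SkBr3 library, by medium (x axis), with the mean and SD of each group of 4 libraries. In each panel the lean libraries do not overlap the control libraries, which the choice of the IDs required. In the third panel the obese libraries split between 4.70 and 35.2 CPM.

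The obese secretome served as a side value for the same 4 IDs. Its mean level lay between control and lean in 3 of them: 4.03 ± 1.96 CPM (SD, n = 4) for ENSG00000198074, 11.7 ± 4.62 for ENSG00000100292 and 7.06 ± 2.00 for ENSG00000136928. The obese libraries were uneven in these 3 IDs too. Replicates 1 to 4 were at 5.97, 2.29, 2.39 and 5.45 CPM in ENSG00000198074 and at 14.9, 6.86, 8.71 and 16.4 CPM in ENSG00000100292. In ENSG00000136928 they were at 5.88, 8.90, 8.6 and 4.86 CPM. Replicates 2 and 3 thus lay nearer the control level than replicates 1 and 4, and some values fell within the control range. The lean level differed from the obese level in these 3 by edgeR, with log2 fold changes of lean over obese of 2.25 (adjusted p = 0.000202), 2.61 (4.63e-05) and -1.89 (1.98e-05) in the same order. For ENSG00000167552, whose obese libraries split into replicates 1 and 3 and replicates 2 and 4, the obese mean of 18.6 ± 15.6 CPM is not a level of the group. The lean-against-obese contrast for this ID was -2.54 in log2 (edgeR adjusted p = 0.0156). The highest lean library, at 3.98 CPM, lay just below obese replicates 2 and 4 and far below obese replicates 1 and 3. The lean-against-obese contrasts use the same lean libraries as the comparison with control, so they are not independent of it. The 4 IDs were also chosen as the extremes of lean against control. That choice favours a lean level far from the obese level, so these adjusted p-values are a description and no test.

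The lean libraries responded in the same direction but to different degrees. In a principal component analysis of these 8 libraries, component 1 held 56.1% of the variance and separated the media, with scores from -28.7 to -24.2 in control and of 25.0, 30.8, 12.4 and 35.9 in lean replicates 1 to 4. Component 2 (10% of the variance) set lean replicate 3 apart, at -26.9 against 4.56 to 9.98 in the other lean libraries. Over the 422 genes called higher with a change of at least 1, the median log2 difference from the control mean was 1.23, 1.32, 1.06 and 1.42 in lean replicates 1 to 4. Over the 161 genes called lower by at least 1 it was -1.12, -1.26, -0.822 and -1.43. Lean replicate 3 gave the smallest difference on both sides and lean replicate 4 the largest. These genes were selected on the same libraries, so the medians describe the order of the libraries and are no test. The obese libraries took part in the filter, scaling and spread estimate behind these calls, but not in the contrast. Set against the same control mean, their medians over the same genes ran from 0.209 to 0.519 and from -0.349 to -0.0904. The genes were chosen for their distance from these control libraries, which favours obese medians on the called side. The obese medians are therefore a description and no test.

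The spread within the lean group was wider than within the control group. The median SD of log2 CPM over the tested genes was 0.121 in the lean libraries and 0.083 in the control libraries (n = 4 each), and 66.3% of tested genes had the larger SD in the lean group. This share was 73.8% among called genes, 56.9% among called genes with a change of at least 1 and 59.2% among genes not called. Pairs of control libraries differed by a chi-square per degree of freedom of 1.93 to 3.02 against counting error alone. Pairs of lean libraries gave 3.66 to 5.77 without replicate 3 and 9.46 to 13.7 with it. Lean replicate 3 also had the smallest total of the lean group (19183007 counts); the part of depth in its position was not tested. Without lean replicate 3 the number of called genes was 7875, of which 7002 were among the 7254 and changed in the same direction. The number with a change of at least 1 was then 744, of which 64.9% were higher, against 72.4% with all 4 lean libraries.

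**Figure D3:**
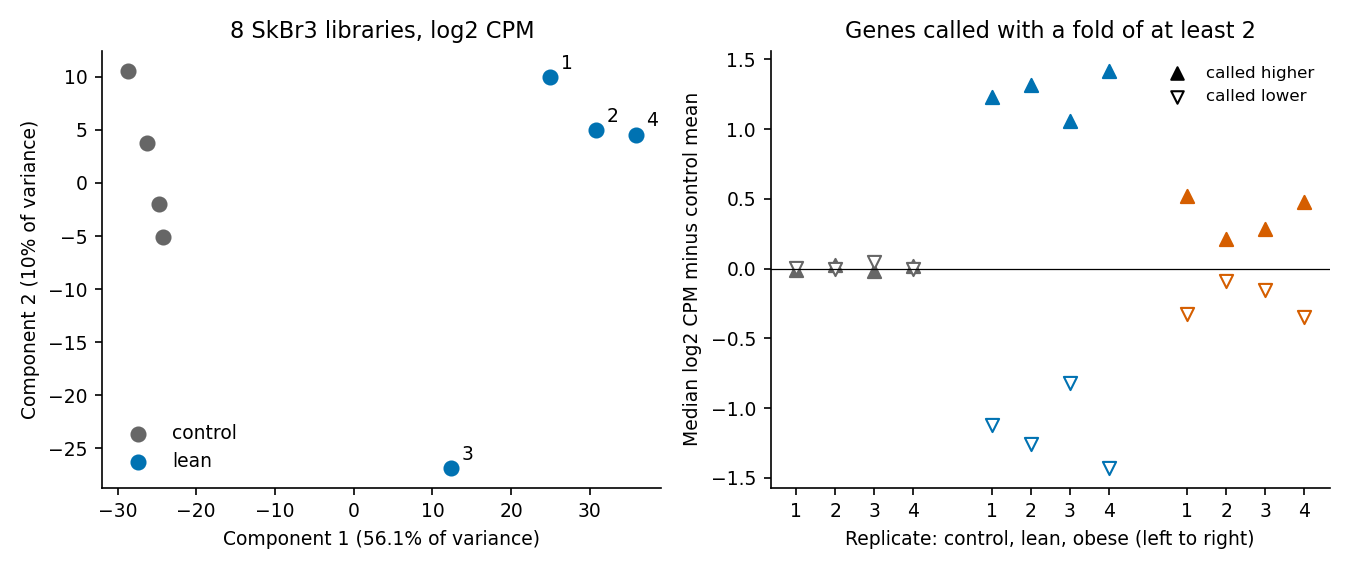
Left, scores of the 8 control (grey) and lean (blue) libraries on the first and second principal component of log2 CPM; lean replicates are numbered, and replicate 3 stands apart on both axes. Right, for each control, lean and obese (orange) library, the median log2 CPM minus the control mean over the 422 genes called higher (filled) and the 161 called lower (open) by a fold of at least 2; the lean libraries lie between 1.06 and 1.42 and between -1.43 and -0.822.

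Over calls of any size, the share of increases was lower the more abundant the transcripts were. The tested genes were divided into 5 bands of equal size by their mean level over the 8 libraries. The bands include genes that passed the filter on low counts through only the lean or only the control libraries, whose direction follows from that. These genes were not counted by band, so their part in the trend was not tested. In the lowest band (0.263 to 1.70 CPM), 625 of 2975 genes were called (21%), 423 higher and 202 lower, so that 67.7% of the calls were increases. In band 2 (up to 11.0 CPM) 793 were higher and 474 lower (62.6% increases), and in band 3 (up to 33.1 CPM) 785 were higher and 825 lower (48.8%). In band 4 (up to 79.6 CPM) 775 were higher and 998 lower (43.7%). In the highest band (79.6 to 8520 CPM), 1979 of 2975 genes were called (66.5%), 745 higher and 1234 lower, and increases made up 37.6%.

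The number of increases was thus much the same in the upper 4 bands, while the number of decreases grew with the level. The share of genes called also rose with the level as the median standard error of the log2 fold change fell, from 0.316 in the lowest band to 0.0412 in the highest. The size of the changes went the other way: the median absolute log2 fold change of called genes was 1.04 in the lowest band and 0.219 in the highest. Large changes of abundant transcripts were few. The decline in the share of increases did not hold for them: of the genes that changed by a fold of 2 or more, 247 rose and 97 fell in the lowest band (71.8% increases), 114 and 44 in band 2 (72.2%), 33 and 15 in band 3 (68.8%), 13 and 2 in band 4 (86.7%) and 15 and 3 in the highest (83.3%). The last 2 shares rest on 15 and 18 genes. Over calls of any size, the order of the bands by their share of increases was the same with DESeq2 size factors and with library totals as the scaling. Under library totals, however, the shares were higher in every band (71.8% in the lowest and 47.2% in the highest), and in bands 3 and 4 increases then outnumbered decreases (57.2% and 53.6%).

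**Figure D4:**
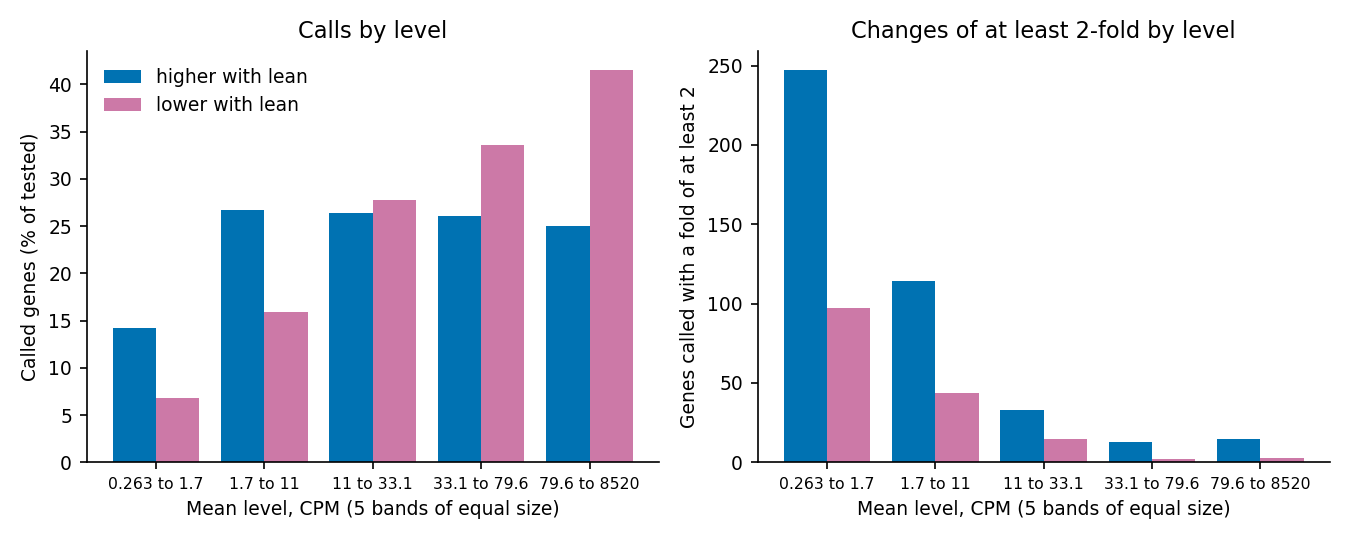
Left, genes called higher (blue) or lower (pink) with the lean secretome as a percentage of the tested genes in each of 5 bands of mean level (x axis, CPM). The bands are not split by how a gene passed the filter on low counts. Right, the number of genes called with a fold of at least 2 in the same bands; increases outnumber decreases in each, from 247 against 97 in the lowest to 15 against 3 in the highest.

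The filter on low counts could be passed through the group in which a gene was high, so the large changes were also counted by how a gene passed. Of the tested genes, 13192 would have passed in the control libraries alone and also in the lean libraries alone, 608 in the lean libraries only, 212 in the control libraries only and 862 in neither group alone. The 608 gave 182 of the 422 large increases and the 212 gave 50 of the 161 large decreases, and their direction follows from how they passed. The 862 gave 33 large increases and 28 large decreases. Among the 13192 genes that passed in both groups, 207 rose and 83 fell by at least 1, so increases were also the more numerous there. Calls of any size in these 13192 genes were 3245 higher and 3616 lower. They were 241 higher and 0 lower in the 608, 0 higher and 83 lower in the 212, and 35 higher and 34 lower in the 862. With no filter on low counts, 846 genes were called with a change of at least 1, and 72.2% of them were higher, against 72.4% with the filter.

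The shift also showed in how the transcript pool was divided. The 3521 genes called higher took 20.5% of the tested counts in each control library and between 24.5% and 27.7% in the lean libraries. The 3733 genes called lower took between 44.9% and 45.4% in control and between 36.8% and 40.3% with the lean secretome. The 422 genes that rose by at least 1 took between 0.494% and 0.504% of the counts in control and between 1.32% and 1.70% with the lean secretome, and the 161 that fell by at least 1 went from between 0.265% and 0.269% to between 0.0965% and 0.174%. Since the genes were chosen by their direction, these shares describe the size of the change in the pool and do not test it. In bulk RNA a change in the level per cell and a change in the share of cells that express a gene cannot be told apart.

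Few tested genes were near the floor of detection throughout a group. There were 6 tested genes with 3 counts or fewer in all 4 control libraries, and 0 with 3 counts or fewer in all 4 lean libraries. A gene of the first kind passed the filter only through the lean or the obese libraries, so its direction was largely set by the filter and is not given as a result.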

How the data were processed

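Poly(A) RNA was prepared with a directional kit and sequenced on an Illumina NovaSeq, per the labels' protocols. The authors deposited raw counts per Ensembl gene ID for the 12 SkBr3 libraries (61552 IDs, whole numbers, no normalization). The submitters' processing notes name cutadapt 1.16, STAR 2.7.9a and featureCounts 1.6.3, and 1 build, GRCm39, which is a mouse build. The human build, the annotation and the strand setting of the counting are not given in the sources used here, so no coordinates or sequences are printed, and reads of overlapping genes or close paralogs may have been shared.

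The 12 libraries (control, lean, obese) were fitted together in edgeR 4.0.16 under R 4.3.3: filterByExpr (minimum count 10), TMM factors (0.988 to 1.02), estimateDisp, a robust quasi-likelihood fit and an F test of lean minus control. Benjamini-Hochberg adjustment ran over 14874 genes, and calls were made below an adjusted p of 0.05. The tested genes held 99.9% of the counts of the 8 libraries, and 46678 IDs were not tested. The standard error of the log2 fold change was derived from the F test, as the absolute log2 fold change divided by the square root of F. It therefore rests on edgeR's estimate of the spread, which draws on other genes as well, and had a median of 0.0768. CPM values use the TMM factors, and log2 CPM a prior count of 2. Standard errors and SDs cover counting and library spread together. The reads carry no molecular identifiers.

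The pipeline was run on simulated counts in which all groups had the same spread. The lean libraries were more widely spread than the control libraries, so that run does not measure the error rate here. The IDs named are, among called genes whose groups did not overlap and whose mean level was 2 or more in log2 CPM, the 2 that rose most and the 2 that fell most. This rule, the comparison and the gene lists were chosen with earlier results of these data known. The lists, written as symbols, could not be matched to IDs and were not run. DESeq2 1.42.0 and other settings were tried as alternatives.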

Additional observations from a re-analysis of the deposited data

Results flagged for a closer look

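In 24 sets of 4 library values (levels of the 4 IDs, totals, component scores and median differences), 3 had 1 library far from the other 3 of its group, where chance gives about 1 in 20. ENSG00000100292 was at 47.3 CPM in lean replicate 3, against 76.9 to 82.3 CPM in the other lean libraries. The score of lean replicate 3 on the second principal component was -26.9, against 4.56 to 9.98. ENSG00000198074 was at 13.4 CPM in lean replicate 4, against 20.8 to 21.3 CPM in the other lean libraries, so the library with the largest median change had the smallest rise in this gene.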

How the results depend on the processing

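The number of called genes (7254) stayed within 1.5 times under every alternative other than a stricter call. Requiring a log2 change of at least 1 left 583 genes, 422 higher and 161 lower. Leaving out 1 library gave between 6345 (without lean replicate 4) and 7875 (without lean replicate 3) called genes, between 3032 and 3771 higher and between 3267 and 4104 lower. DESeq2 called 7035, the 8 libraries alone 6981, no filter 7073 and DESeq2 size factors in edgeR 7236; library totals gave 7256, with 4120 higher and 3136 lower. Of the genes called both in the values reported and in an alternative, 0 had the opposite direction. The number with a change of at least 1 ran from 497 to 846, the latter with no filter. All 4 IDs passed in each of 16 alternatives, with adjusted p from 7.12e-20 to 0.000237 (ENSG00000198074), 3.3e-29 to 8.32e-05 (ENSG00000100292), 5.87e-13 to 0.00789 (ENSG00000167552) and 7.16e-55 to 2.47e-05 (ENSG00000136928). The replicate numbers were not taken as pairs: same-numbered lean and control libraries had residual correlations from 0.00108 to 0.0467, and 1 of 8 libraries correlated best with its own number. A fit with the replicate block called 7138 genes and changed no call of the 4 IDs. The alternatives for the gene lists were not run. Depth limits the lowest band of levels, where the median standard error was 0.316.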
